A study of Rattus norvegicus with 6 samples.

Results

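Regions called for H3K9la, H4K8la and H4K16la in control rat tenocytes, and for none of these marks after lactate, are described here. The peaks of all 6 lists were merged wherever they overlapped by at least 1 bp, and a region was a member when each of the 3 control lists had a peak in it and none of the 3 lactate lists did. This held for 854 of 176698 merged regions, or 0.483%. They are 5.90% of the 14479 regions with all 3 control peaks. The members were thus chosen by the measured presence or absence of peaks in these same lists, so the absence of a lactate call and the strength of the control calls are given as a description, with no test.

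The study profiled tendon cells of wild-type rats with CUT&Tag, in which an antibody directs a transposase to chromatin carrying a mark and the released fragments are sequenced. The groups were tenocytes given 20 mM lactate and untreated tenocytes, with H3K9la, H4K8la and H4K16la profiled in each, 1 library per mark and condition. The titles and the treatment entry of each sample separate these groups, but the protocol text on treatment gives 20 mM lactate for every library, controls included, and this conflict was not resolved. How long the treatment lasted, and whether the cells came from 1 animal, the labels do not say. With 1 library in each group no difference has a replicate check, treatment and library cannot be told apart, and no p-value was computed. Positions are in build rn7, counted from 1. No annotation or sequence of that build was used, so no gene is assigned to a region, no sequence is shown, and the labelled cell type was not checked against marker genes.

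Lactylation attaches a lactyl group derived from lactate to a lysine, and the acetyltransferase p300 and class I histone deacetylases are known to add and remove it. The 3 lysines studied lie in histone tails and can also be acetylated, H3K9 at active promoters and enhancers and H4K16 where it loosens the packing of the chromatin fibre. Tenocytes build the collagen matrix of tendon, a tissue with few blood vessels. Added lactate is known to raise histone lactylation in other cell types.

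The lactate lists held 46597 H3K9la, 42787 H4K8la and 62563 H4K16la peaks, and the control lists 61850, 61347 and 40681 of the same marks. Depth was read from the genome-wide background, the average count of fragments covering a base, recovered from the deposited peak statistics. It was 0.868 times as high with lactate as in control for H3K9la, 1.18 times for H4K8la and 1.86 times for H4K16la. A control call without a lactate call was frequent for single marks, at 46.2% of regions with an H3K9la peak, 49.9% of those with an H4K8la peak and 26.8% of those with an H4K16la peak. The members are the regions where this held for all 3 marks together.

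Control peaks at members were mostly of middling rank within their lists. The fold is the caller's ratio of the summit pileup to the local background, and −log10 q is its significance after correction, both as deposited by the authors. The median H3K9la control peak of the 854 members had a fold of 3.41 (quartiles 2.99 to 3.92) and a −log10 q of 4.14. The H4K8la control peaks had a median fold of 3.92 (3.37 to 4.55) and a −log10 q of 4.15. The H4K16la control peaks had a median fold of 3.81 (3.38 to 4.29) and a −log10 q of 3.33. Ranked within their own lists, the H3K9la peaks stood at percentile 56.2 at the median, the H4K8la peaks at 59.5 and the H4K16la peaks at 51.8.

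Peaks of the highest strength made up a smaller share at members than in the whole lists. Other regions without a lactate peak gave lower values still. A −log10 q of at least 10 was reached by 22 H3K9la control peaks of members, or 2.58% (Wilson 95% interval 1.71 to 3.87), against 6.04% of the whole list. It was reached by 11 H4K8la peaks, or 1.29% (0.72 to 2.29), against 7.28% of that list, and by 3 H4K16la peaks, or 0.351% (0.12 to 1.03), against 5.19%. At regions with 2 control marks and no lactate peak the shares were 1.38% (H3K9la), 1.02% (H4K8la) and 0.203% (H4K16la). The intervals of members and of these regions overlap for every mark. With 1 control mark and no lactate peak the shares were 0.182%, 0.175% and 0.0365%. At the lower threshold of 5 the H3K9la peaks of members lay near their list, with 31.7% (28.7 to 34.9) against 31.5%. The H4K8la peaks lay above theirs, with 34.7% (31.5 to 37.9) against 30.2%, and the H4K16la peaks below, with 17.1% (14.7 to 19.8) against 24.2%. Peak strength is part of what makes a call, so a scarcity of strong peaks is close to the rule itself.

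The control signal increased step by step with the number of marks that were also called with lactate. At members the median H4K8la control fold was 3.92, at the 2254 regions with 1 mark called with lactate 4.04, at the 4103 with 2 marks 4.34 and at the 7268 with all 3 marks 4.98. For H3K9la control the fold ran 3.41, 3.51, 3.75 and 4.29 in the same order, and for H4K16la control 3.81, 3.90, 4.11 and 4.75. Regions with 2 control marks and no lactate peak had lower median control folds, 3.27 (H3K9la), 3.72 (H4K8la) and 3.71 (H4K16la). Strength bears on being called, so the rise with lactate calls is close to the rule and is a description. Widths followed, with merged regions of 869.5 bp at the median for members, 993 bp for 1 mark, 1117 bp for 2 marks and 1233 bp for 3 marks. Part of this last trend comes from the merging, since each further list can only widen a region. The H3K9la control peaks alone had median widths of 529 bp at members and 783 bp at regions called in all 6 libraries, and the H4K8la control peaks 543.5 and 902 bp.

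**Figure D1:**
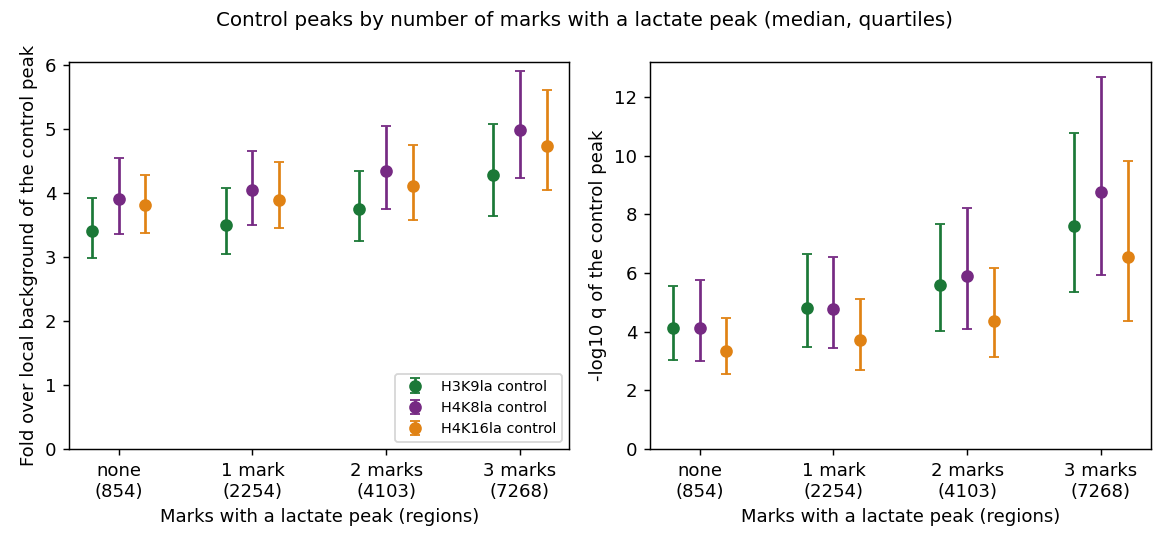
Fold over local background (left) and −log10 q (right) of the control peaks of each mark, by how many marks had a lactate peak in the same region; points are medians, bars span the quartiles and the number of regions stands under each group. Among the groups shown, all with 3 control peaks, the members at the far left have the lowest medians for every mark. The H3K9la fold is 3.41 there against 4.29 at regions called with lactate for all 3 marks.

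The share of regions with all 3 control peaks that lacked every lactate peak fell with control strength. Calls in these same lists define the members, so this fall is close to the rule itself and is given as a description. Of the 443 regions with a mean control −log10 q between 2 and 3, 24.4% (20.6 to 28.6) had no lactate peak. The share was 16.9% (15.2 to 18.8) between 3 and 4, 10.7% (9.53 to 12.0) between 4 and 5, 5.38% (4.52 to 6.39) between 5 and 6, and 2.07% (1.65 to 2.60) between 6 and 8. Between 8 and 10 it was 0.574% (0.32 to 1.03), or 11 of 1915 regions. Between 10 and 15 a single region of 1792 had no lactate peak, and above 15 there was none among 562. For a count of 0 the limit used is 3 counts of the total, here 0.534%, and not a Wilson interval.

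**Figure D2:**
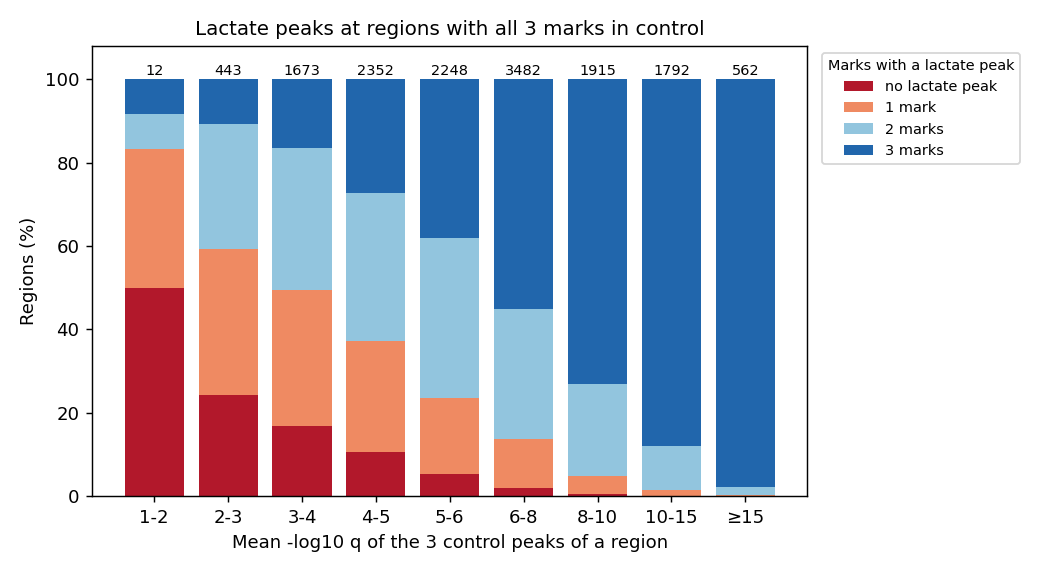
Regions with control peaks for all 3 marks, split by mean control −log10 q (horizontal axis) into the percentage with a lactate peak for no mark, 1, 2 or 3 marks; the number of regions stands above each bar. The share with no lactate peak, in dark red, is 24.4% between 2 and 3 and 2.07% between 6 and 8.

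The reverse arrangement gave a smaller set, and its share also fell with strength. It comprised 374 regions with all 3 lactate peaks and no control peak, 0.212% of all regions and 3.40% of the regions with all 3 lactate peaks. At a mean −log10 q between 3 and 4, 16.9% (15.2 to 18.8) of the triple-control regions had no lactate peak, whereas 8.33% (7.20 to 9.63) of the triple-lactate regions had no control peak. Between 4 and 5 the shares were 10.7% and 3.27% (2.62 to 4.09), and between 5 and 6 they were 5.38% and 1.84% (1.31 to 2.57). The 2 scales rest on libraries of different depth, so equal −log10 q does not mean equal signal. The local background of the members' control peaks was 2.35 (H3K9la), 2.15 (H4K8la) and 1.82 (H4K16la) times the genome-wide one at the median. Members had the lowest such medians among the triple-control regions, since those called with lactate for 1 mark had 2.52, 2.46 and 2.00 times and those called for all 3 had 2.44, 3.12 and 2.33. In the reverse set the lactate peaks had 1.43, 1.39 and 1.52 times. No other regions were measured in the lactate libraries, so set and library cannot be told apart in this value.

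Local background also varied among the members. In 115 of 854 it was at least 5 times the genome-wide value in some control library, and in 3 of them in all 3 control libraries. In 10 members it equalled the genome-wide value in all 3. The same counts were not made for other regions, so they cannot be called high or low. A high local background lowers the fold that a given pileup yields, so members differ in how much signal stands behind a like fold. Over the genome-wide background the members' summits rose 9.23-fold for H3K9la, 11.4-fold for H4K8la and 9.14-fold for H4K16la at the median. At regions called in all 6 libraries the medians were 12.5, 19.7 and 13.7.

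The members' H3K9la control signal was also expressed at the depth of the shallower H3K9la lactate library. Scaled to that background, the H3K9la control summits had a median −log10 p of 6.17, against 6.91 as called, and 7 of 854 came below 3.30, the lowest value called in the H3K9la lactate list. These summits had already passed a like threshold when the members were chosen, so this describes how far above it they stood. For H4K8la and H4K16la the lactate library was the deeper one, and scaling can only raise a summit. The lists hold no lactate signal below the threshold, so the part of depth in the missing calls was not tested.

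The strongest member lay on chromosome 18, chr18:58127526-58128155. Its control folds were 5.18 (H3K9la), 6.0 (H4K8la) and 6.14 (H4K16la), with −log10 q of 11.4, 9.94 and 9.48. Its 3 summits fell within 4 bp of each other, and the nearest lactate peak of any mark was 13394 bp away. It was the single member with a mean −log10 q above 10.

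The next in order, chr1:168302862-168303733, had control folds of 5.17 (H3K9la), 4.91 (H4K8la) and 5.72 (H4K16la), and a mean −log10 q of 9.07. The third, chr4:13956143-13957158, was led by H4K8la, with a fold of 6.09 against 4.60 for H3K9la and 5.30 for H4K16la. Here a lactate H3K9la peak lay 851 bp away. On the X chromosome, chrX:71079032-71079907 had folds of 5.92, 5.52 and 5.20 in the order H3K9la, H4K8la and H4K16la, and its nearest lactate peak was 13361 bp off. The members chr3:10802504-10803067, with summits within 5 bp, and chr5:134516053-134516864, with summits within 53 bp, had lowest folds of 4.29 and 4.79. In all 6 of these regions each of the 3 marks had a fold above 4.

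In the other 4 of the 10 strongest the marks differed more, and each had a fold under 4 for at least 1 mark. At chr13:65292641-65293137 the H3K9la control peak had a −log10 q of 16.4, the highest of any member, but H4K8la had 6.71 and H4K16la 2.51. Its H3K9la fold was 3.24, over a local background 12.3 times the genome-wide one. At chr14:74884965-74885779 the H3K9la −log10 q of 15.5 stood beside 2.57 for H4K8la and 6.37 for H4K16la, with a local H3K9la background of 12.1 times. At chr7:19623829-19624452 H3K9la reached 14.7 and the other marks 5.03 and 5.15, and a lactate H3K9la peak was 359 bp away. At chr5:151857816-151859209 it was H4K8la that led, with 13.96 against 8.25 for H3K9la and 3.68 for H4K16la, in a local H4K8la background of 10.2 times.

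**Figure D3:**
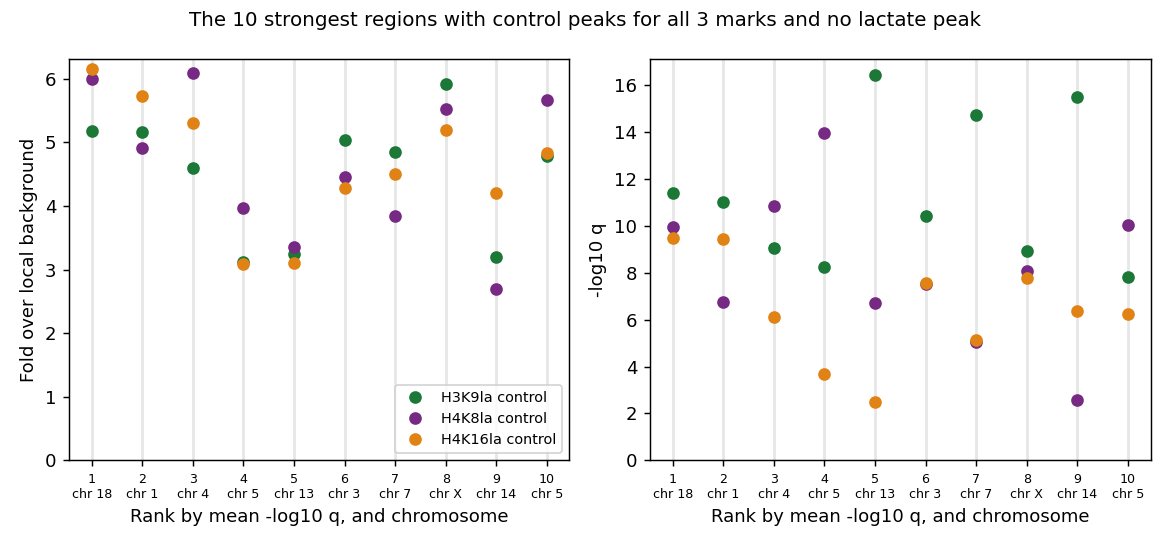
Fold over local background (left) and −log10 q (right) of the 3 control peaks at the 10 members of highest mean −log10 q, numbered by rank with their chromosome; each point is 1 control library. The marks lie close together at ranks 1 and 8 and far apart in −log10 q at ranks 4, 5, 7 and 9.

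Ranked instead by the lowest fold of the 3 marks, the first was chr7:22463463-22464107, with control folds of 5.65 (H3K9la), 6.04 (H4K8la) and 5.69 (H4K16la). The second was chr13:73783037-73783687, with 5.25, 5.47 and 5.56. The X chromosome, chromosome 18 and chromosome 1 regions already named completed the 5. All of them were at least 6852 bp from any lactate peak. A fold of 5 for every mark was reached by 4 of these 5, and the fifth had a lowest fold of 4.91.

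A control −log10 q of at least 5 for each of the 3 marks was met by 27 members, on 15 chromosomes. Among all regions with 3 control peaks 4760 met it, so 0.567% (0.390 to 0.824) of such regions had no lactate peak. Median control folds in these 27 were 4.43 (H3K9la), 4.63 (H4K8la) and 4.78 (H4K16la). Their summits were closer together, at a median spread of 142 bp against 319 bp in the other 827 members, and 26 of the 27 had a base common to all 3 peaks. A lactate peak was more than 5 kb away from 16 of them and more than 20 kb away from 0 of them.

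At the other end, the weakest member by mean −log10 q was chr14:82102397-82103482, with a −log10 q of 1.94 (H3K9la), 1.31 (H4K8la) and 1.84 (H4K16la). The next 4, chr7:8982762-8983237, chr1:7814615-7815514, chr3:108026419-108026909 and chr10:89158310-89159139, had means of 1.72, 1.83, 1.92 and 1.97. The deposited lists end at a −log10 q of about 1.30, so these lie just inside the rule. Just outside it, the strongest region with all 3 control peaks and a single lactate mark was chr5:159961524-159962040. It had an H4K16la lactate peak with a fold of 5.54, and control folds of 5.72 (H3K9la), 6.41 (H4K8la) and 7.64 (H4K16la). The next, chr6:106482976-106484331, kept H3K9la with a lactate fold of 5.31 against 5.41 in control. Then chr1:194189792-194190792 and chr1:153441838-153442728 kept H4K8la, with lactate folds of 4.76 and 4.90 against control folds of 4.50 and 3.88. The last, chr1:69165125-69166669, kept H4K16la with a fold of 5.89, against 7.09 in control. All 5 had a mean control −log10 q above the 10.3 of the strongest member, from 13.8 to 16.6.

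The 3 marks did not sit at exactly the same bases. The distance between the outermost of the 3 control summits was 312 bp at the median (quartiles 182 to 511), and it was at most 100 bp in 98 members, or 11.5% (9.51 to 13.8). At regions called in all 6 libraries the median was 235.5 bp and the share 19.9% (19.0 to 20.9). By pair, the median summit distance at members was 176.5 bp between H3K9la and H4K8la, 174.5 bp between H3K9la and H4K16la, and 195 bp between H4K8la and H4K16la. Peaks at those regions were also wider, which leaves summits more room to differ.

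A base common to all 3 control peaks existed in 731 of 854 members, or 85.6% (83.1 to 87.8), and 95.8% (95.3 to 96.2) of the regions called in all 6 libraries had one. The other 123 members were joined only through a chain of overlaps. Those had a median width of 1164 bp against 832 bp, and a mean −log10 q of 3.73 against 4.23. Of the 5 widest members 2 were such chains. The widest, chr2:59921826-59924572 at 2747 bp, had 8 bp common to the 3 peaks, and chr12:14838935-14841336 and chr9:89115622-89117979, at 2402 and 2358 bp, had none. By contrast chr20:45764230-45766553, at 2324 bp, had 444 bp in common and an H4K8la −log10 q of 9.80, and chr2:150233422-150235688 had 206 bp in common. In 829 members each control list had exactly 1 peak.

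Peak strengths of the marks were weakly related across members. The Spearman correlation of −log10 p across the 854 members was 0.11 between H3K9la and H4K8la, 0.17 between H3K9la and H4K16la and 0.10 between H4K8la and H4K16la. It was 0.38, 0.38 and 0.46 across the 7268 regions called in all 6 libraries. Members cover a narrower range of strength, which by itself lowers a correlation, and the marks share local coverage, so these are descriptions only. By percentile within its list, the leading mark was H3K9la in 315 members, H4K8la in 321 and H4K16la in 218. In 185 members, or 21.7%, all 3 peaks stood above the median of their lists, and in 89, or 10.4%, none did. These counts and those of the leading mark were not made for other regions, so they cannot be called high or low.

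Lactate peaks were often close by. The nearest lactate peak of any mark was 5179 bp away at the median (quartiles 2552 to 9273), and it was within 5 kb of 406 members, or 47.5% (44.2 to 50.9). At this distance other regions that had no lactate peak gave similar shares. The share within 5 kb was 47.9% (46.6 to 49.1) for the 5922 regions with 2 control marks and 46.1% (45.7 to 46.5) for the 59167 with 1. Within 1 kb it was 12.2% (10.2 to 14.5) at members, 15.1% (14.2 to 16) with 2 marks and 14.8% (14.5 to 15.1) with 1. Long distances were rarer at members than at regions with 1 mark. Within 20 kb lay 95.6% (94.0 to 96.7) of members, 94.5% of regions with 2 marks and 89.6% (89.4 to 89.9) of those with 1, which left 38 members beyond it.

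Control strength was compared between members near to and far from a lactate peak. The mean −log10 q had a median of 3.95 in the 104 members with a lactate peak within 1 kb, 4.12 from 1 to 5 kb, 4.13 from 5 to 20 kb and 4.06 beyond. For 2 of the 3 marks the median fold was highest in the 38 members beyond 20 kb. The H4K8la fold was 3.89 within 1 kb, 3.71 from 1 to 5 kb, 4.05 from 5 to 20 kb and 4.30 beyond. The H4K16la fold was 3.68, 3.67, 3.89 and 4.21 in the same order. The H3K9la fold was 3.32, 3.22, 3.53 and 3.50, so it was not highest at the far end. Local background, which bears on the fold, was not compared between these groups. The nearest lactate peak belonged to H4K16la at 350 members, to H3K9la at 270 and to H4K8la at 234, and the H4K16la lactate list is also the longest. Median distances to the lactate peaks of each mark were 8804.5 bp for H4K16la, 11106 bp for H3K9la and 13595 bp for H4K8la.

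**Figure D4:**
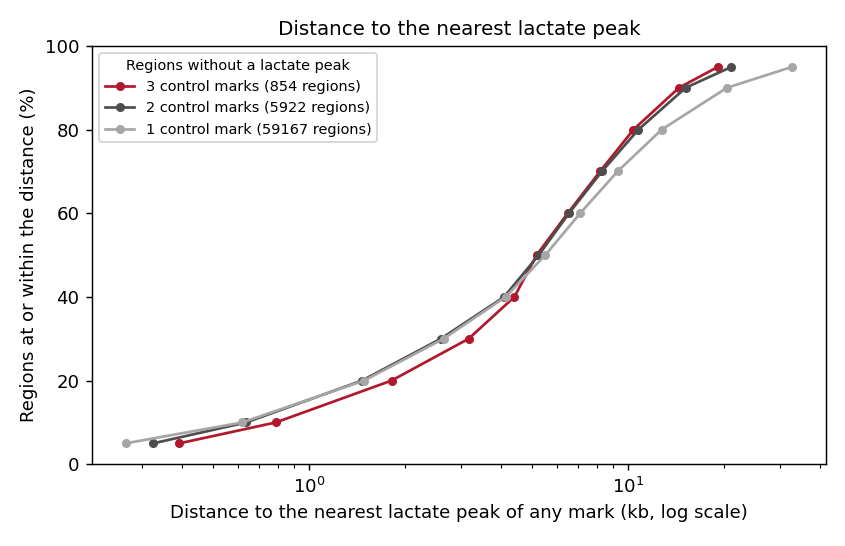
Cumulative percentage of regions without a lactate peak (vertical axis) by distance to the nearest lactate peak of any mark (kb, log scale), for members and for regions with control peaks for 2 marks or 1 mark; points are quantiles from 5 to 95%. The 3 curves meet near their medians of 5179, 5258 and 5512 bp.

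The member nearest to a lactate peak, chr20:3995438-3996393, was 1 bp from an H4K16la lactate peak and 562 bp from an H4K8la one, so it lay on the edge of the rule. The next, chr2:78715887-78716679, chr19:49059791-49060598, chr16:6698050-6699764 and chr6:38915605-38917011, lay 31, 33, 38 and 63 bp from lactate peaks. These 5 would leave the set if no lactate peak within 1 kb were required. The farthest was chr2:178959464-178960446, 57468 bp from the nearest lactate peak, with control folds of 3.92 (H3K9la), 3.45 (H4K8la) and 3.23 (H4K16la). Then came chr11:52006183-52007650 at 47078 bp, led by H4K16la with a fold of 5.45, chr18:49518583-49519309 at 45101 bp, chr1:253059847-253060470 at 40323 bp and chr3:91016855-91017773 at 40163 bp. None of these 5 had a mean −log10 q above 5.

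The surroundings of members leaned the same way as the whole lists. Within 50 kb on either side, leaving out the region's own peaks, a member had on average 3.29 lactate peaks of H3K9la against 4.76 control peaks (log2 ratio −0.53). For H4K8la it had 2.77 lactate and 4.52 control peaks (log2 ratio −0.70), and for H4K16la 3.99 lactate and 2.76 control peaks (log2 ratio 0.53). Around regions called in all 6 libraries the log2 ratios were −0.46, −0.66 and 0.52 in the same order of marks, and over the whole lists −0.41, −0.52 and 0.62. Around regions with 2 control marks and no lactate peak the log2 ratios were −0.54, −0.72 and 0.58. H4K16la peaks were thus more numerous with lactate around each of these sets, and members lack an H4K16la lactate peak by the rule. Some of the members' flanks overlap each other, since 48 neighbouring pairs of members lay within 100 kb.

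The positions of members along the genome are given as a description. They occupied 667 windows of 1 Mb, 516 of them with a single member, and neighbouring members were 1.50e+06 bp apart at the median. Of the neighbouring pairs 4 lay within 10 kb. All triple-control regions together occupied 1998 windows of 1 Mb. Spacing was not computed for those regions or for an equally large draw from them. The counts of members therefore cannot be called sparse or clustered. The most members in a window was 4, in 6 windows that tied. The first 5 in genome order were on chromosome 1 from 121000001 to 122000000, with 4 of 13 triple-control regions lacking lactate peaks, and from 181000001 to 182000000, with 4 of 27. The others were on chromosome 7 from 130000001 to 131000000, with 4 of 17, chromosome 8 from 63000001 to 64000000, with 4 of 12, and chromosome 9 from 42000001 to 43000000, with 4 of 13. The windows were chosen for their number of members, so these shares are a description.

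Every chromosome but Y held members, and Y had only 1 triple-control region in all. The share of triple-control regions without a lactate peak ran from 3.80% (2.35 to 6.08) on chromosome 16 to 7.60% (5.47 to 10.5) on chromosome 18 among the autosomes, and the intervals of all 20 autosomes took in the value over all chromosomes, 5.90%. On the X chromosome it was 10.3% (6.71 to 15.6), 19 of 184 regions, against 5.84% (5.47 to 6.24), 835 of 14294, on the autosomes together. The triple-control regions of X were weaker, with a median mean −log10 q of 5.23 against 6.26 on the autosomes. The share was also split by strength, where the counts on X are small. Below 6 the intervals on X are too wide to show that shares are alike. Below a mean −log10 q of 4 it was 19.6% (10.7 to 33.2) on X, 9 of 46 regions, and 18.6% (17.0 to 20.4) on the autosomes. Between 4 and 6 it was 8.33% (3.88 to 17.0) on X, 6 of 72 regions, and 8.11% (7.35 to 8.94) on the autosomes. Above 6 it was 6.06% (2.38 to 14.6) on X, which rests on 4 of 66 regions, and 1.04% (0.84 to 1.29) on the autosomes. These intervals do not overlap, and the share on X was the higher. Strength above 6 was not split further. The share of each list that lay on X was 1.84% for H3K9la with lactate and 1.54% in control, 2.92% and 2.28% for H4K8la, and 2.41% and 2.48% for H4K16la.

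**Figure D5:**
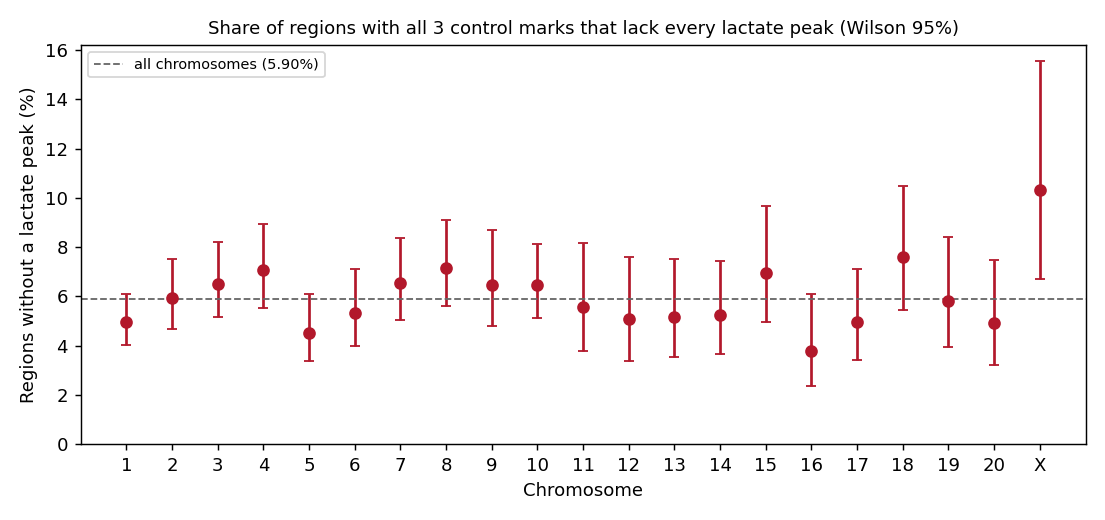
Percentage of regions with all 3 control marks that had no lactate peak, by chromosome; bars are Wilson 95% intervals for counting error and the dashed line is the value over all chromosomes, 5.90%. The X chromosome stands highest at 10.3%, with an interval from 6.71 to 15.6.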

How the data were processed

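The labels' protocols describe CUT&Tag on rat tenocytes, 1 library per mark and condition. The submitters' processing notes name MACS2, Bowtie2, cutadapt, FastQC and deepTools and the build rn7. Versions, settings and roles are not stated there, nor whether the IgG antibody named in the protocol gave a library used for peak calling. Groups came from the sample titles. The authors deposited 1 peak list per library. The deposited columns used were positions, the fold (a ratio at the summit over local background), −log10 p and −log10 q. The deposited score is 10 times −log10 q without decimals in 315782 of 315825 peaks and was not used further, and the other deposited columns hold the start, end and summit offset.

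Where a list had several peaks in a region the one of highest −log10 p was used. Summit pileup and local background were solved from fold and −log10 p, taking fold as (pileup + 1) over (background + 1) and p as the Poisson tail, within 0.002 of −log10 p; this reading is inferred from the values, and 1 peak of 315825 had no solution. The most frequent background of a library was taken as genome-wide. All intervals are Wilson 95% intervals and cover counting error only; the limit for a count of 0 is 3 counts of the total. Named regions are the 10 members of highest mean −log10 q, the 5 of highest lowest fold, the 5 widest, the 5 farthest from and the 5 nearest to a lactate peak, the 5 weakest, the windows holding most members, and 5 regions just outside the rule. The members, the lists and these rules were chosen with earlier results of these data known. The gene table at hand describes another assembly, GRCr8, so genes, sequences and the planned gene lists were not used here. The code was tested on simulated data. Python 3.11.15, numpy 2.4.6, pandas 2.3.3, scipy 1.17.1 and matplotlib 3.10.9 were used.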

Additional observations from a re-analysis of the deposited data

How the results depend on the processing

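The number of members moved with the thresholds of peak strength and when 5 kb to a lactate peak was required. It was 460 with all lists held to −log10 q of at least 5 (9.68% of triple-control regions) and 97 at 10 (12.7%), since raising the threshold also removes lactate peaks. It was 27 (0.567%) when only the control lists were held to 5, with a median mean −log10 q of 7.20 and a lactate peak within 5 kb of 40.7%. Requiring no lactate peak within 1 kb gave 750 members (5.18%), within 5 kb 448 (3.09%), and a base common to the 3 control peaks 731 (5.46%). Merging peaks within 500 bp gave 931 members, a median mean −log10 q of 4.00 against 4.10, and 41.5% with a lactate peak within 5 kb against 47.5%. Taking the lowest of the 3 control −log10 q in place of the mean gave a median of 2.66. Control summits scaled to the lactate background, with a margin of 2 units of −log10 p, left 504; without the margin 847, a number that the rule nearly fixes. These last settings were chosen after seeing the data. Equal list lengths (690), an overlap of at least 50 bp (820) and leaving out X and Y (835) kept the count within 1.5 times of 854. So did the 1 kb distance, the common base, merging within 500 bp and scaling without the margin. No paired analysis was possible because each group has 1 library. The lists give no read totals, and lactate signal below the authors' threshold cannot be seen in them, so a missing call is not a missing mark.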
